A study of Caenorhabditis elegans with 2 samples.

Results

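The 8 genes described here are set-16, tasp-1, set-2, ash-2, rbbp-5, wdr-5.1, utx-1 and dpy-30 of the nematode Caenorhabditis elegans. A taspase is encoded by tasp-1, and the others encode enzymes and partner proteins of the methylation of histone H3 known as H3K4 methylation. All 8 genes are among the 19973 protein-coding genes on the chromosomes listed in the files. The gene list was chosen by the strength of binding peaks near set-16 and tasp-1 in these same data, and the other 6 were added as partners of the pathway. The binding values below are therefore a description and were not tested. The measurement was chromatin immunoprecipitation with sequencing (ChIP-seq) of ZTF-26, a zinc finger protein. The worms were strain OP565, of genotype unc-119(tm4063) III with the transgene wgIs565, which makes ZTF-26 joined to GFP and FLAG at its C terminus. Precipitation was with an antibody to GFP per the sample descriptions, although the antibody field names ztf-26. Young adults of both sexes were collected whole, 56 hours after release from L1 starvation, as biological replicates 3 and 4 of 1 group. Whole worms mix all tissues, so a peak present in a few cells and a weaker peak present in all of them cannot be told apart. The labels do not name the promoter of the transgene, and no untagged strain or control library was analysed here.

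Methylation of H3K4 marks active promoters and enhancers. In worms the SET1-type enzyme SET-2 and the MLL3/MLL4-type enzyme SET-16 add it, each working in a COMPASS complex with the shared core proteins ASH-2, RBBP-5, WDR-5.1 and DPY-30. UTX-1 is a demethylase of H3K27 that belongs to the SET-16 complex. TASP-1 is the worm member of the taspase family, whose mammalian enzyme cleaves the H3K4 methyltransferase MLL. A role of TASP-1 in H3K4 methylation in the worm was not tested here. In the worm this pathway is known for its roles in the germline, in vulval development and in lifespan.

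The sequences at the summits of the 5 upstream sites are shown because they are the places where ZTF-26 signal was highest next to each of these genes. Those of tasp-1, set-16 and ash-2 are optimal peaks, in the authors' list of peaks reproducible between replicates. Those of set-2 and wdr-5.1 are weaker candidates outside that list. A summit is the base the authors' file gives as a peak's highest point. Each window has 50 bp on either side of the summit of the pooled list, and is read 5′ to 3′ in the direction of the named gene from the WBcel235 genome (build ce11). The windows lie at III:10759192-10759292 for tasp-1, III:13643695-13643795 for set-16, II:11980263-11980363 for ash-2, III:4930372-4930472 on the minus strand for set-2 and III:3705113-3705213 for wdr-5.1. Capitals mark the sequence words discussed next.
tasp-1: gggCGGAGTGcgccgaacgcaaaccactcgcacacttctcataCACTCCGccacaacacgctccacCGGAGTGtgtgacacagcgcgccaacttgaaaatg
set-16: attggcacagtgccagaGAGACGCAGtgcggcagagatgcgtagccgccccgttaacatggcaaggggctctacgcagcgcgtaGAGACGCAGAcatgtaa
ash-2: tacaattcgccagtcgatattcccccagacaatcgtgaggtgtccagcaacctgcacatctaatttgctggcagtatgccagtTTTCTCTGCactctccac
set-2: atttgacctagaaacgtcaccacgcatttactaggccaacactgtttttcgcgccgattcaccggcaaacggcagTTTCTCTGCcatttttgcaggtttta
wdr-5.1: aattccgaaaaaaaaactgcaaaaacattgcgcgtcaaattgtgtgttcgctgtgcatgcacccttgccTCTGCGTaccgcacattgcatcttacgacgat

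The set-16 window held overlapping words taken from earlier work on these same peaks, and the tasp-1 window held none of them. The 6 words, searched on both strands, were ACGCAGA in first place, then CTGCGTC, with GAGACGC following, then the repeat CTCTCTC, the palindrome CACGTG, and lastly CGCCAGC. The first 3 overlap within one longer stretch. At set-16 the words GAGACGC and CTGCGTC overlapped in the same orientation on both sides of the summit, and ACGCAGA was present on the downstream side alone. GAGACGC started 33 bp before it and 34 bp after it, and the copies lay 67 bp apart. GAGACGC was found in 8.29% of such windows around all 1929 optimal peaks and in 4.32% of 19973 promoters. Promoters were taken from 250 bp before to 50 bp after the 5′ end of each protein-coding gene. They are longer than the summit windows, so shares of windows and shares of promoters are not like for like. At least 2 copies were found in 7 optimal windows (0.363%), that of set-16 included, and in 34 promoters (0.170%). The reading on the other strand of the word ACGCAGA was present once at wdr-5.1, 19 bp after the summit of a weak candidate outside the optimal list. ACGCAGA was found in 7.88% of optimal windows and 4.55% of promoters. None of the 6 words was found in the windows of tasp-1, ash-2, set-2, utx-1 or dpy-30, and at least 1 of them was found in 29.5% of optimal windows. A match describes the letters only, since the words came from these peaks.

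The tasp-1 window held a different repeated word, chosen after the sequence was seen. CACTCCG or its other strand CGGAGTG was present 3 times, starting 47 bp and 7 bp before the summit and 16 bp after it, and the outer copies pointed the opposite way to the middle copy. This word was found in 1.04% of optimal windows and 1.55% of promoters. The promoters are longer stretches, so the lower share in windows does not show that the word is rarer at peaks. The tasp-1 window was the single one of 1929 optimal windows with 2 or more copies, and its promoter was the single one with 3 among 19973, where 5 had 2 or more. Some word of 7 bases was present at least 3 times in 300 optimal windows (15.6%), runs of 1 letter included, so repeats as such were not rare. The windows of tasp-1 and set-16 were rich in G and C, at 59.4% each, a value above that of 93.1% of optimal windows, whose median was 46.5%. Those of ash-2, set-2 and wdr-5.1 had 49.5%, 46.5% and 45.5%. The longest stretch that ash-2 and set-2 had in common was TTTCTCTGC, which was found in 2.02% of optimal windows. A common stretch of 9 bases was found in 5 of the 21 pairs among 7 windows, and the longest of the other pairs had 6 to 8.

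ZTF-26 peaks were among the strongest of all genes at tasp-1 and set-16, clear but weaker at ash-2, and below the authors' cutoff or absent at the other 5 genes. The cutoff is the lowest signal in the optimal list, the authors' list of peaks reproducible between replicates, and signal is the authors' value for each peak, of a scale not given in the sources used here. A gene was counted when a summit fell within 1000 bp before or 500 bp after any annotated transcript 5′ end. By this rule 3 of the 8 genes had an optimal peak, whereas 5.69% of all protein-coding genes had one. The same 3 genes had a peak among the 1929 strongest of replicate 3 (all genes 5.75%) and among the 1929 strongest of replicate 4 (all genes 5.45%). No reading is made of this excess, since the list was chosen with the peaks of tasp-1 and set-16 known. Candidates of any rank, which the authors list together with background, were found at 7 of the 8 genes in the pooled list (all genes 40.1%), at 7 for replicate 3 alone (41.8%) and at 5 for replicate 4 alone (32.6%). Library depth is unknown, as the peaks carry no counts.

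**Figure D1:**
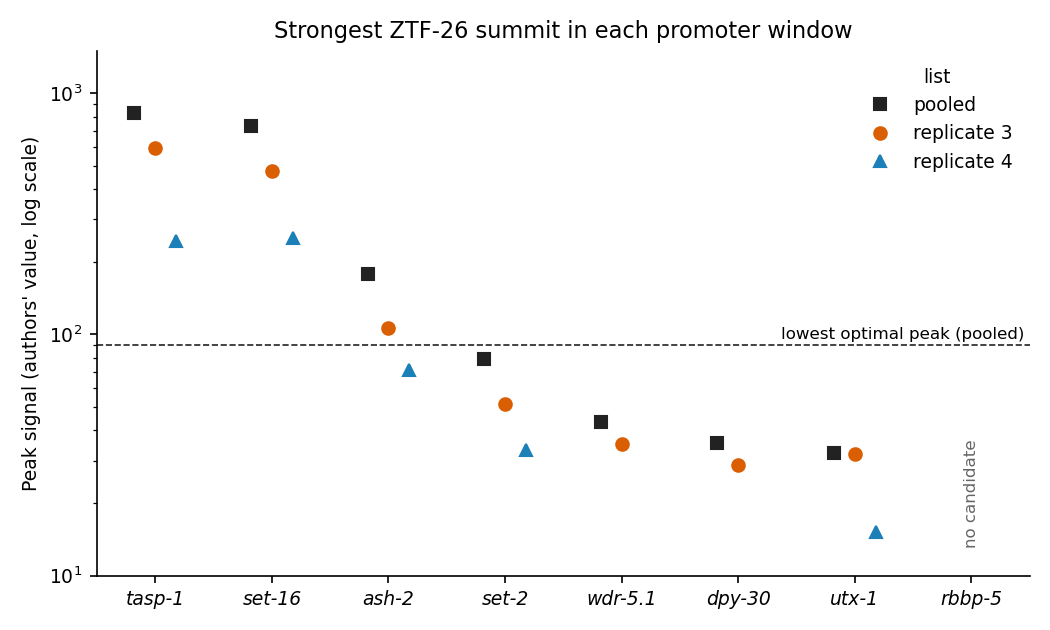
Signal of the strongest summit in the promoter window of each gene (vertical, authors' value, log scale) in the pooled list and in both replicates, with a dashed line at the lowest optimal peak, 90.2, which applies to the pooled list. The points of tasp-1 and set-16 stand far above the line in the pooled list, and the replicate 4 point of utx-1 is a different site from its other points.

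The taspase gene tasp-1 had the strongest peak of the 8. Its signal was 831 with both replicates pooled, 590 for replicate 3 and 245 for replicate 4, which placed the peak 6th of 28233, 2nd of 30000 and 18th of 20373. Among protein-coding genes its strongest summit ranked 3rd in the pooled list. The pooled signal was 9.22 times that of the lowest optimal peak. The peak spanned III:10759080-10759451 with its summit in intergenic sequence, 65 bp upstream of the first annotated 5′ end. The gene has 3 annotated 5′ ends spread over 362 bp, and the summit lay upstream of all of them, at 65, 143 and 427 bp. The summit of replicate 3 was at the same base, and that of replicate 4 was 21 bp closer to the gene. Replicate 4 also listed a weak second candidate 311 bp downstream of a 5′ end, of signal 24.3, which had no counterpart in the windows of the other lists.

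The divergent neighbour of tasp-1 is K01G5.10, whose 5′ end lies 785 bp away. The summit was 720 bp upstream of K01G5.10 and 65 bp upstream of tasp-1, so it was in the window of both but closer to tasp-1. Both genes thus carry the same signal values from 1 peak, and the window rule cannot divide them.

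The methyltransferase gene set-16 followed closely, and its order against tasp-1 was not the same in the replicates. Its signal was 729 with both replicates pooled, 474 for replicate 3 and 250 for replicate 4, with ranks of 14, 10 and 17. The tasp-1 signal was 1.25 times that of set-16 in replicate 3, whereas that of set-16 was 1.02 times that of tasp-1 in replicate 4. The difference between these genes was thus no larger than the spread between replicates. The peak spanned III:13643589-13643910, between set-16 and its divergent neighbour drr-2, whose gene is known in worms for the response to dietary restriction. The summit lay near the middle of the 346 bp between their 5′ ends, 171 bp upstream of set-16 and 175 bp upstream of drr-2. The replicate summits were 2 bp apart. A gap that small or smaller was found at 7.19% of the 1918 optimal peaks with a peak in both replicates, where the median gap was 32 bp. Neighbouring optimal peaks can share a replicate peak, so these are not all distinct sites.

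**Figure D2:**
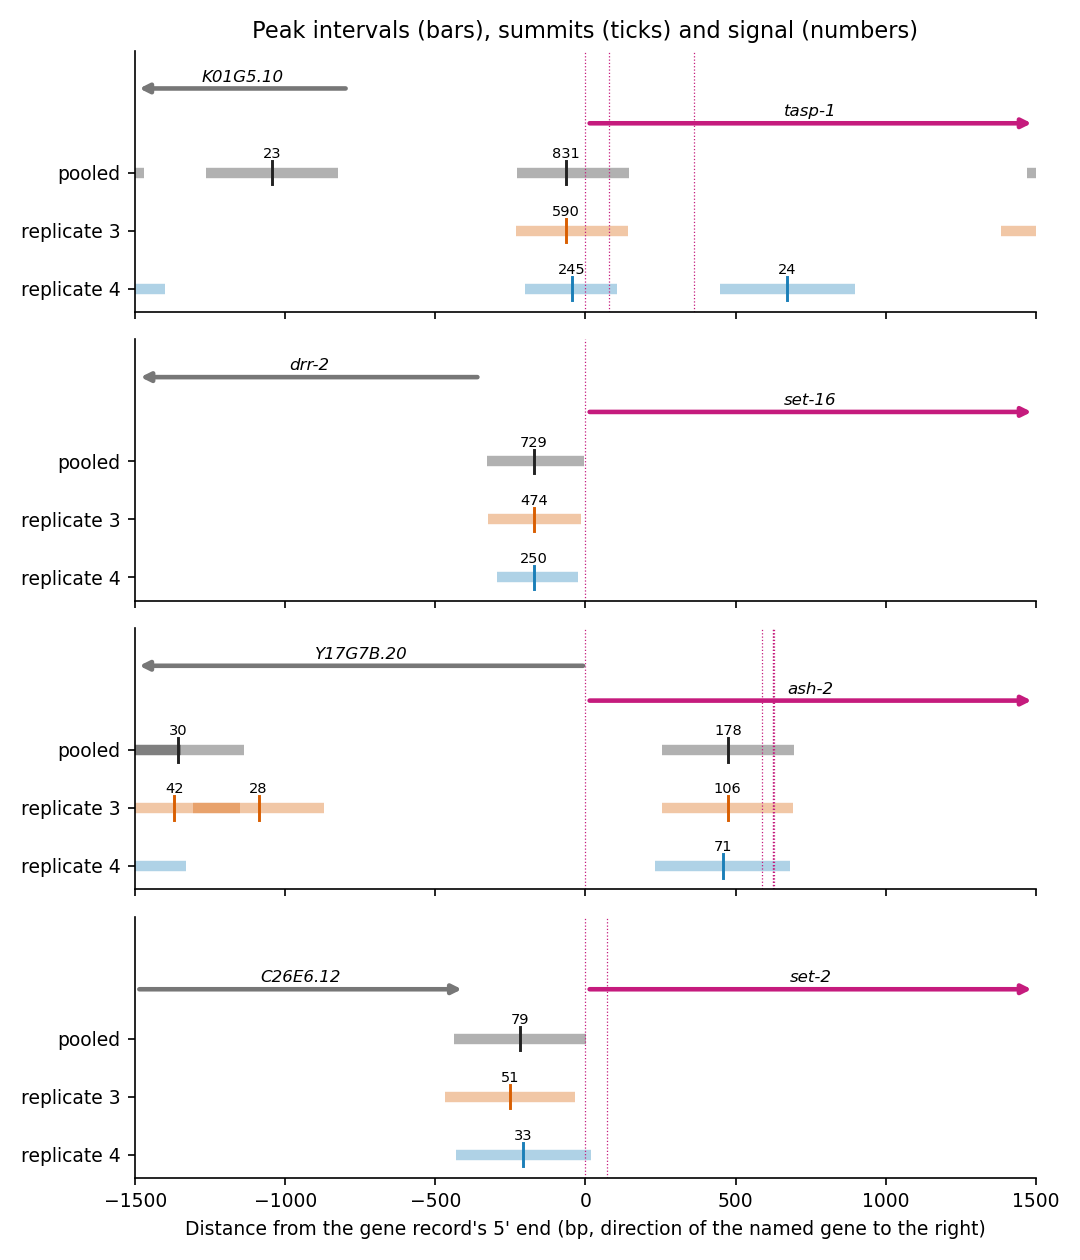
Peak intervals (bars), summits (ticks) and signal (numbers) of the pooled list and both replicates around tasp-1, set-16, ash-2 and set-2, against distance from the 5′ end of the gene record in bp, with arrows for genes clipped at the edges and dotted lines at the transcript 5′ ends of the named gene. The summits of tasp-1, set-16 and set-2 lie upstream of the gene record, at 65, 171 and 218 bp in the pooled list, and that of ash-2 lies 475 bp inside it but upstream of its coding transcripts.

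The core subunit gene ash-2 had an optimal peak of intermediate strength. Its signal was 178 with both replicates pooled, 106 for replicate 3 and 71.2 for replicate 4, with ranks of 465, 574 and 423. The set-16 peak was 4.45 times as strong in replicate 3 and 3.51 times as strong in replicate 4, so their order was the same in both. In the pooled list the ash-2 signal was 1.36 times the median of the optimal peaks, 131. The peak at II:11980093-11980532 had its summit inside the first exon of a non-coding ash-2 transcript, 475 bp downstream of that transcript's 5′ end. The 4 other annotated 5′ ends, those of the coding transcripts, lay 113 to 152 bp downstream of the summit. The divergent neighbour Y17G7B.20 overlaps the start of the non-coding transcript, with 5′ ends 6 bp apart, and the summit lay 469 bp upstream of it.

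The SET1-type enzyme gene set-2 fell outside the optimal list of 1929 peaks and was the highest of the members without an optimal peak. Its signal was 78.8 with both replicates pooled, 51.5 for replicate 3 and 33.2 for replicate 4, with ranks of 2511, 2512 and 2617. The lowest optimal peak had a signal of 90.2, and ash-2, at 178, was the lowest member inside the list. The candidate at III:4930202-4930641 had its summit 218 bp upstream of set-2, in the 397 bp between set-2 and C26E6.12 on the same strand, and carried a −log10 q-value of 2.86. The replicate summits were 45 bp apart. The ash-2 signal was 2.07 times that of set-2 in replicate 3 and 2.14 times in replicate 4. The gene has 3 annotated 5′ ends spread over 4104 bp, and the distances given here are from the most upstream one. The nearest optimal peak lay at the other end of the gene, 8068 bp downstream of that 5′ end at III:4921916-4922355, with a signal of 94.2. The 5′ end nearest to that peak was that of mmab-1, a gene of vitamin B12 metabolism.

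The WD-repeat gene wdr-5.1 and the genes dpy-30 and utx-1 had weak candidates, and the methylation core gene rbbp-5 had none. The wdr-5.1 candidate had a signal of 43.3 in the pooled list and 34.98 in replicate 3, with its summit 122 bp upstream in the pooled list, and replicate 4 listed none in the window. The dpy-30 candidate had a signal of 35.4 in the pooled list and 28.8 in replicate 3, and replicate 4 again listed none. DPY-30 is also a part of the dosage compensation machinery in worms. Its candidate lay inside a coding exon, 312 bp downstream of the 5′ end, and was also in the window of rnp-1, 442 bp upstream of that gene. The divergent neighbour of dpy-30, ZK863.8, has its 5′ end 4003 bp away. The utx-1 candidate had a signal of 32.2 in the pooled list and 31.9 in replicate 3 and also lay in a coding exon, 433 bp downstream. For utx-1 replicate 4 listed a different site 606 bp upstream, of signal 15.2. The −log10 q-values of these pooled candidates were 0.54 for wdr-5.1, 0.26 for dpy-30 and 0.17 for utx-1. Among the pooled peaks these 3 candidates ranked 8278, 12554 and 15144. The genes dpy-30 and utx-1 changed order between the pooled list and replicate 3. A missing candidate in replicate 4 is not shown to be missing binding, since its list is shorter and the depth is unknown.

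The rbbp-5 promoter carried no candidate of any rank in any list. The gene lies on chromosome II with the peptidase gene tpp-2 as its divergent neighbour, 233 bp between their 5′ ends. The nearest pooled candidate was 17261 bp from its 5′ end, with a signal of 32.8, and the nearest optimal peak was 150867 bp away. For dpy-30 the nearest optimal peak was 100249 bp from the 5′ end, for utx-1 6777 bp and for wdr-5.1 3482 bp. Nothing in the files gives the coverage of the rbbp-5 promoter, so a weak signal there would not be seen.

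**Figure D3:**
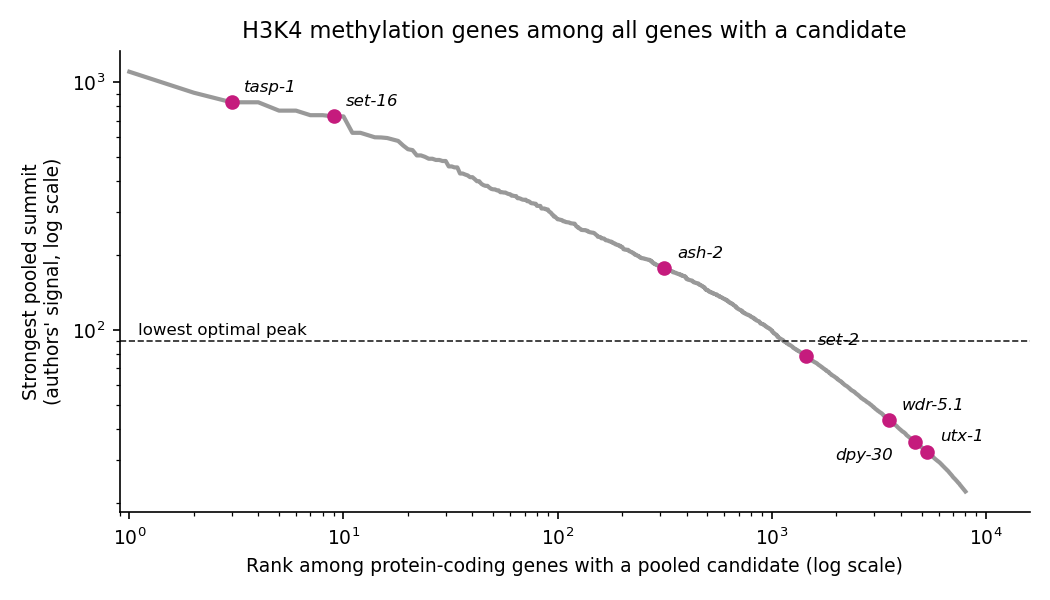
Strongest pooled summit of each protein-coding gene with a candidate in its promoter window (vertical, authors' signal, log scale) against its rank (horizontal, log scale), with 7 of the 8 genes marked and rbbp-5 missing for want of a candidate. The genes tasp-1 and set-16 rank 3rd and 9th, ash-2 315th and set-2 1439th, the last below the dashed line at the lowest optimal peak.

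At the 4 members with a site found in both replicates, the difference between replicates lay within the middle 90% of that at optimal peaks. The other members had no site in common between the replicates to compare. Replicate 3 had the higher signal at all 4 sites found in both replicates, by 2.41 times at tasp-1, 1.89 times at set-16, 1.55 times at set-2 and 1.49 times at ash-2. The median ratio over optimal peaks was 1.73, and the middle 90% of peaks ran from 1.00 to 2.99. Replicate peaks shared by neighbouring optimal peaks were counted each time. The ratio at tasp-1 was higher than at 86.2% of optimal peaks. What moves this ratio was not tested, and the scale of signal may differ between the lists. The tasp-1 and set-16 peaks were also narrow, at 372 and 322 bp, while ash-2 had the 440 bp width that 82.0% of optimal peaks carry. Of the 25 strongest optimal peaks, 11 were narrower than 440 bp.

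**Figure D4:**
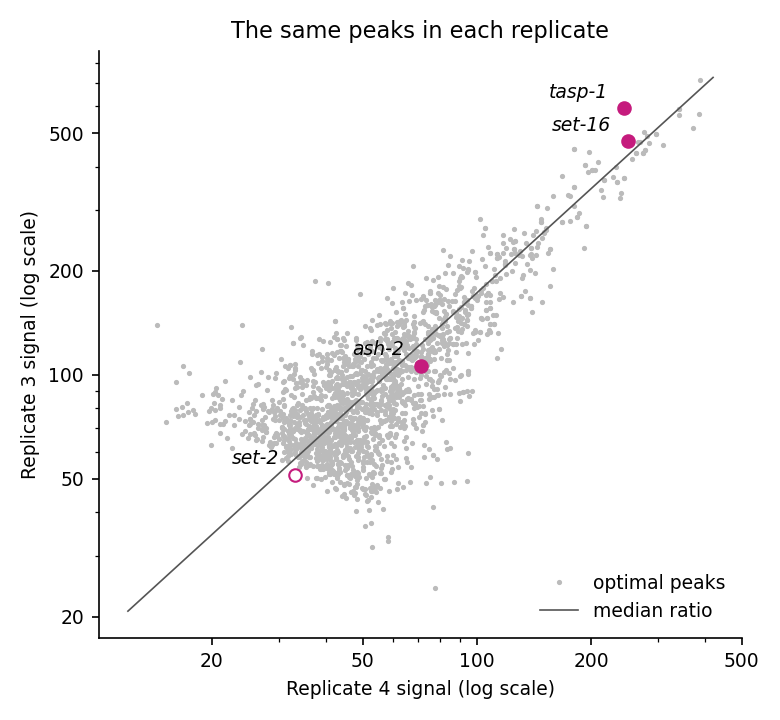
Signal of the strongest overlapping peak of replicate 3 (vertical) and of replicate 4 (horizontal), both log scale, for the 1918 optimal peaks that had both. The line is the median ratio, 1.73. Filled marks are tasp-1, set-16 and ash-2 and the open mark is the set-2 candidate outside the optimal list, and tasp-1 lies above the line.

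The genes most like tasp-1, set-16 and ash-2 in peak signal were found by a fixed measure, and several pairs of them share a peak. Likeness was the distance between genes over log2 signal in the pooled list and both replicates, among 4765 genes with a candidate in all 3. Genes whose strongest summit is the member's own peak have the same values and were left out, namely drr-2 for set-16, K01G5.10 for tasp-1 and Y17G7B.20 for ash-2. For set-16 the nearest genes with another peak were K11H12.8 and rpl-15, which share a peak of signal 737, 473 and 267, at a distance of 0.09. Next to set-16 came Y17G9B.5 at 0.19. For tasp-1 the nearest with another peak were Y17G9B.5 and rpl-20, which share a peak of signal 769, 491 and 281, at 0.35, and then drr-2, through the set-16 peak, at 0.37. For ash-2 the nearest with another peak were rpac-19, a subunit gene of RNA polymerases, and tbg-1, the gamma-tubulin gene, which share a peak of signal 178, 109 and 70.8, at 0.04. The fibrillarin gene fib-1 followed at 0.04. Likeness in signal is a description of these 3 lists alone.

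Other genes of histone methylation carried optimal peaks at 4 of 30, or 13.3%, beside the 5.69% of all protein-coding genes. These were set-4, rbr-2, met-1 and jmjd-1.2, and the list was chosen by name with earlier results of these data known. The same 4 genes, and no other of the 30, had a peak among the 1929 strongest of each replicate. The strongest was at set-4, a gene of the H4K20 methyltransferases, with signal 212 for the pooled reads, 123 for replicate 3 and 88.1 for replicate 4 and the summit 264 bp upstream. For jmjd-1.2, a JmjC demethylase gene, the signals were 195, 129 and 66.2, with the summit 481 bp upstream and also in the windows of mrps-21 and F29B9.11. The H3K36 methyltransferase gene met-1 had 156, 93.2 and 61.1, with the summit 129 bp upstream. The H3K4 demethylase gene rbr-2, which works against the enzymes above, had 142, 82.5 and 53.3, with the summit 647 bp upstream. All 4 peaks were within the range between the cutoff and 212, none near the level of tasp-1 or set-16. The highest of the others was mes-2, an H3K27 methyltransferase gene, at 80.5 in the pooled list, below the cutoff.

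Of the 7 further COMPASS parts on that list, none had an optimal peak. A pooled candidate was listed at cfp-1 (signal 33.8) and swd-2.1 (29.9), and none at wdr-5.2, wdr-5.3, swd-2.2, hcf-1 or pis-1, of which pis-1 had a candidate in replicate 4 (15.7). Of the 4 H3K4 demethylases, rbr-2 alone had an optimal peak, and lsd-1, spr-5 and amx-1 had pooled candidates of 50.9, 26.1 and 24.9. A pooled candidate of any rank was found at 17 of the 30 genes (56.7%), beside 40.1% of all genes. The set-17, set-32, mes-4, set-1, jmjd-1.1, jmjd-3.1, jmjd-3.2 and jmjd-3.3 windows held no pooled candidate, and of these set-1 had one in replicate 4 (20.1). Weak pooled candidates, below the cutoff, were listed at set-25, set-30, met-2, mes-3, mes-6, jmjd-2 and jmjd-5, with signals from 24.6 at jmjd-2 to 43.2 at mes-3.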

How the data were processed

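The files were peak lists from 2 ChIP-seq libraries. Peaks and background were called by the authors for each replicate and for both pooled, against a control, and an optimal list was derived by irreproducible discovery rate, per the deposited file list. Caller, aligner and thresholds are not given in the sources used here. In the deposited lists a peak has a signal value, a −log10 q-value and a summit. Only lists on ce11 were used, with Ensembl 115 (WBcel235) for gene positions and RefSeq's WBcel235 genome for sequence. On ce11 the optimal list was checked to hold exactly the 1929 strongest pooled peaks. Python 3.11.15, pandas 2.3.3 and pysam 0.24.0 assigned summits to windows of 1000 bp upstream to 500 bp downstream of transcript 5′ ends, a rule tested on simulated data. Replicate peaks were matched to optimal peaks by an overlap of at least 1 bp, taking the strongest, so neighbouring optimal peaks can share a replicate peak. The members, lists, words and rules were chosen with earlier results of these data known. All members were named, with neighbours sharing a summit, divergent neighbours and, for members with an optimal peak, the 3 most similar genes with another peak. The 2 replicates form 1 group, so there was no contrast and no test. Alternatives changed the window, the threshold, the replicate, the 5′ ends and the width of the sequence window.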

Additional observations from a re-analysis of the deposited data

How the results depend on the processing

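The count of 3 members with an optimal summit in the window, tasp-1, set-16 and ash-2, was 3 with the same genes under 7 of 8 alternatives. These were windows of 2000 bp upstream to 500 bp downstream and of 500 bp upstream to 200 bp downstream, overlap of the peak interval, the part of the optimal list above its median signal, the 5′ end of the gene record alone, and the 1929 strongest peaks of either replicate alone. With pooled candidates of any rank the count was 7 of 8, because that list includes weak sites and background by construction. With 100 bp in place of 50 bp on either side of the summit, tasp-1 gained a copy of CTCTCTC. At least 1 of the 6 words was then present in 3 of the 7 member windows in place of 2. At that width 43.6% of optimal windows held at least 1 of them, against 29.5% at the narrower width, and CTCTCTC alone was found in 17.5%. Without replicate 3 the rank of tasp-1 was 18 and without replicate 4 it was 2, against 6 in the pooled list. The rank of utx-1 was 6766 without replicate 4, against 15144, and its summit without replicate 3 was 606 bp upstream, against 433 bp downstream. Of the alternatives for single members' signal, rank and position, 9 moved beyond the standard deviation of the 2 replicates and 23 did not. The 23 include every alternative for signal, where the other window returned the same peak and value. For wdr-5.1 and dpy-30 there was no such standard deviation, as replicate 4 listed no candidate. For rank and position it came from the same 2 replicate values that were compared, so these counts are a description only. The window of 500 bp upstream to 200 bp downstream no longer held the utx-1 and dpy-30 candidates. No paired analysis was possible because the 2 replicates form 1 group. Unknown depth limits what a missing candidate shows.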

Other observations

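Away from the promoters, the gene bodies of the members held few and weak pooled candidates and no optimal peak. The longest gene, set-16, had 5 candidates in its 12722 bp outside the window, the strongest of signal 47.7 against 729 at its promoter. The tasp-1 gene had 3, the strongest of signal 35.9, and set-2 and dpy-30 had 1 each, of signal 24.1 and 24.0. The bodies of ash-2, rbbp-5, wdr-5.1 and utx-1 had none outside the window. These are values of the authors' lists and were not tested.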
